A study of Rattus norvegicus with 6 samples.

Results

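The genes described here are the 10 of the prolactin, STAT5 and serotonin pathway: *Prlr*, *Ghr*, *Stat5a*, *Stat5b*, *Socs2*, *Cish*, *Tph1*, *Tph2*, *Bcl6* and *Men1*. They were found by gene name among the non-control spots of the rat expression array, which carries 36174 gene names, and all 10 were present, with 14 probes between them. *Ghr* had 3 probes, *Prlr* and *Tph1* had 2 each, and the other 7 genes had 1 each. The data came from 6 one-colour arrays of β-cells sorted from islets of young adult male Wistar rats, 3 of replicating and 3 of quiescent cells. Islets of 4 rats were pooled for each of 3 islet preparations, and every preparation gave 1 array of each group. Both groups came from the same islets, cultured overnight in medium with fetal bovine serum and the thymidine analogue EdU from the day of isolation. Dispersed cells took up Newport Green, a zinc dye retained by β-cells, were fixed with paraformaldehyde, and were gated for high scatter and high dye. Replicating cells were EdU-positive and had passed through DNA synthesis during that culture, whereas quiescent cells were EdU-negative.

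Prolactin, placental lactogens and growth hormone bind single-pass receptors of the cytokine family. The receptors carry the kinase JAK2, which phosphorylates the transcription factors STAT5A and STAT5B, and these bind DNA as dimers and switch on genes that include their own inhibitors, *Cish* and *Socs2*. In islets of pregnancy the pathway is known for β-cell expansion, in which prolactin receptor signalling raises *Tph1*, the enzyme that starts serotonin synthesis, and lowers menin, the product of *Men1*, by way of the repressor BCL6. The comparison therefore asks whether β-cells of male rats that had replicated outside pregnancy differed from their quiescent neighbours in the transcripts of this pathway.

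The sequences that decide which transcript an array value stands for are given first. The prolactin receptor exists in a long form, which signals to STAT5, and in short forms that lack most of the intracellular part, so its 2 probes are shown with a probe of each of the following steps. Probes were 60 bases long, and positions are those the array files give on the rat build rn4. The first *Prlr* probe, at chr2:59680669-59680728, is assigned by the array files to a transcript that encodes the long form. The second is listed from 59677666 to 59678170 of the same chromosome, a span of 505 bases, so it joins exons, and the files assign it to another transcript variant. The accession lists of both probes had 1 transcript in common, so the second probe cannot be taken to measure a short form alone. The *Stat5b* probe lies at chr10:89722209-89722268 and the *Socs2* probe at chr7:32605827-32605886.
Prlr, long form: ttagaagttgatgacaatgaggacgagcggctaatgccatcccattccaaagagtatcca
Prlr, other variant: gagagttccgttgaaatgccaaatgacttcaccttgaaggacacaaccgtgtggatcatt
Stat5b: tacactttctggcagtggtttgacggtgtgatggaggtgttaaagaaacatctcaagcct
Socs2: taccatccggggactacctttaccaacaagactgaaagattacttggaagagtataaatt

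STAT5 dimers bind the motif TTCNNNGAA, which reads the same on both strands and was searched in the 300 bases from 250 before to 50 after each start in RefSeq (rat build GRCr8). The table held starts for 9 of the 10 genes, 10 starts in all, and none for *Socs2*. *Cish* and *Prlr* held the motif. It was found in 2970 of all 33469 promoters, or 8.87%. The *Cish* promoter held it 4 times, and 2 of the 33469 promoters (0.00598%) held it 4 times or more. The first 3 matches began 241, 230 and 136 bases before the start, and the last lay nearer to it. The single *Prlr* match lay at another of that gene's starts, 176 bases before it. A match of letters is a description and not a measured binding site. The stretches are printed with the motif in capitals, for *Cish* at chr8:116850719-116850878 and for *Prlr* at chr2:60909463-60909511, both on the plus strand.
Cish: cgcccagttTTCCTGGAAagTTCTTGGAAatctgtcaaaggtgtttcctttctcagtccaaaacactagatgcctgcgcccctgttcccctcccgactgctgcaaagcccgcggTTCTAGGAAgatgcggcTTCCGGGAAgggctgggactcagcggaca
Prlr: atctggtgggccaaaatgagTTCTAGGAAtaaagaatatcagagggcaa

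All values below are the deposited normalized log2 values, and ratios are log2, replicating over quiescent within a preparation. A gene with several probes is represented by its brightest probe, and levels are not compared between genes because probes differ in brightness. A gene is called higher or lower when its unadjusted p in limma was 0.05 or less and the log2 ratio was at least 1 in size, which is the selection rule of the study. None of the 10 genes was called, with 0 higher and 0 lower. Named genes are here the 17582 array names that match a RefSeq symbol or synonym. Across them 5.95% were higher and 2.58% lower by this rule, and across all 45598 probes 4.44% were higher and 4.18% lower. After Benjamini-Hochberg adjustment over all probes limma called 0 of the 45598 probes (0%), while 4379 had an unadjusted p of at most 0.05. The smallest unadjusted p among the 10 genes was 0.29, for *Stat5a*, with an adjusted p of 0.583. The median of their 10 ratios was -0.02, against 0.03 over all named genes. All 14 probes were well above background on all 6 arrays, so none of these values was limited by a dim signal. With 3 arrays a group, however, the 95% intervals were wide, as the plot of fitted ratios shows. A p that misses the threshold therefore does not show that levels were equal.

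**Figure D1:**
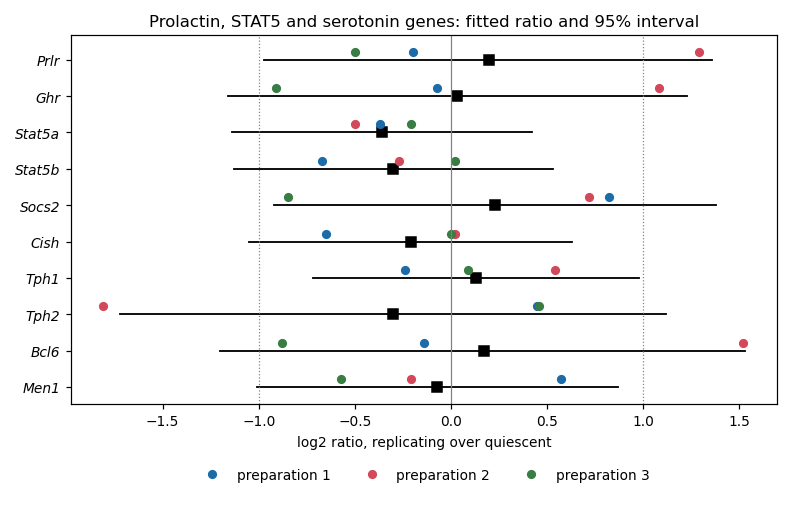
Log2 ratio of replicating over quiescent β-cells (horizontal axis) for the 10 genes. Black squares are limma ratios with 95% intervals (lines), coloured points are the 3 islet preparations, and dotted lines mark a ratio of 1 in size. Every interval crosses 0, and only *Stat5a* has all 3 preparations on 1 side of it.

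The arrays themselves differed in ways that touch every gene here. Pearson's r across probes was 0.967 to 0.986 between replicating arrays and 0.654 to 0.867 between quiescent arrays, where the quiescent array of preparation 2 stood apart. That array had 1583 spots marked as outliers, against 252 to 299 on the others. Of its probes 98.4% were well above background, and 96.4% on the quiescent array of preparation 1. The quiescent array of preparation 3 and the replicating arrays had 80.7% to 87.3%. The known proliferation markers *Mki67*, *Top2a*, *Cdk1* and *Pcna* were all called higher in the replicating cells (4 of 4). Their summed level was 13.70 to 13.78 in log2 on the replicating and 10.95 to 12.43 on the quiescent arrays. The 7 β-cell markers with a value on every array, led by the insulin genes, summed to 17.88 to 18.24 on the replicating and 17.18 to 18.36 on the quiescent arrays. Of the 8 β-cell markers on the array 0 were called higher and 1 lower, and the median ratio was -0.31. In 3 of them all replicating values lay below all quiescent values, as in 5.85% of named genes. Of these, *Nkx6-1* had no value on the quiescent array of preparation 2. For *Slc2a2* the highest replicating value was 12.76 and the lowest quiescent value 12.77. Some markers of other cells also differed. The 5 alpha cell markers summed to 14.46 to 16.46 on the replicating and 12.42 to 14.09 on the quiescent arrays, and 2 of 5 were called higher, *Gcg* with a ratio of 2.39. The 5 mesenchymal markers summed to 13.57 to 15.13 against 11.87 to 12.37, with 3 of 5 called higher, and the 3 delta and PP cell markers to 12.29 to 13.16 against 10.99 to 11.93, with 2 of 3. Of the 4 leukocyte markers 2 and of the 4 acinar markers 1 were called higher, with summed levels that overlapped between the groups. In each of these lists 3 of 4 ratios were above 0, and *Laptm5* (-0.57) and *Cela1* (-0.82) were below. None of the 4 endothelial or 3 duct markers was called, with median ratios of 0.68 and -0.23 and sums that overlapped. All markers of the alpha, mesenchymal, and delta and PP cell lists were well above background on all arrays. The part of these other cells in the results below was not tested. In sorted pools, fewer cells of a type and less RNA per cell cannot be told apart.

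The receptors came first in the pathway and were not called. *Prlr*, the prolactin receptor, read 12.05, 12.05 and 12.00 in replicating cells (preparations 1, 2 and 3, in this order here and below). The same long-form probe read 12.26, 10.75 and 12.50 in quiescent cells. The 3 replicating arrays were thus within 0.05 of each other and lay inside the quiescent range, which spanned 1.75. The *Prlr* ratio was 0.20 (standard error 0.46, 95% interval -0.97 to 1.36), with -0.20, 1.29 and -0.50 in the preparations. Without preparation 2 the *Prlr* ratio was -0.35, so its sign rested on the quiescent array that stood apart. The other *Prlr* probe read 8.45, 8.79 and 8.76 on the replicating and 7.94, 8.46 and 8.78 on the quiescent arrays, a ratio of 0.27 (interval -0.54 to 1.08). Neither probe separated the groups.

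*Ghr*, the growth hormone receptor, showed the same arrangement on its brightest probe (chr2:52495400-52495459). It read 11.96, 12.18 and 11.68 on the replicating arrays and 12.03, 11.10 and 12.59 on the quiescent arrays. The *Ghr* ratio was 0.03 (standard error 0.47, interval -1.16 to 1.23), with -0.07, 1.08 and -0.91 in the preparations, and -0.49 without preparation 2. A dimmer *Ghr* probe gave a larger ratio. It read 8.95, 8.22 and 8.55 on the replicating and 7.48, 6.15 and 8.61 in quiescent cells. The 6.15, in preparation 2, was close to the dimmest signal well above background on its array, 5.91. The ratio in that preparation was 2.08. That probe had a ratio of 1.16 (standard error 0.50, interval -0.11 to 2.43), with an unadjusted p of 0.0652 and an adjusted p of 0.475 in limma with Benjamini-Hochberg adjustment. In preparation 3 that *Ghr* probe had a ratio of -0.06. The third *Ghr* probe lost the quiescent array of preparation 2 as an outlier and had a ratio of 0.15 in the other 2 preparations. The 3 probes of *Ghr* thus did not give 1 answer, and no value chooses among them.

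*Stat5a* was the gene whose groups stood apart. It encodes one of the 2 STAT5 proteins that carry the lactogen signal to the nucleus, and its probe lies at chr10:89819609-89819668. It read 10.07, 10.24 and 10.19 on the replicating arrays and 10.44, 10.74 and 10.40 on the quiescent arrays. All 3 replicating values lay below all 3 quiescent values, and the ratio was below 0 in every preparation, at -0.37, -0.50 and -0.21. It was the 1 gene of the 10 whose groups did not overlap, while 5.85% of named genes had all replicating values below and 11.2% all above the quiescent ones. The *Stat5a* ratio was -0.36 (standard error 0.31, interval -1.14 to 0.42), or 1.28-fold more on the quiescent arrays. With an unadjusted p of 0.29 in limma it passed no threshold.

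*Stat5b*, its close paralogue, read 9.51, 9.09 and 8.97 on the replicating and 10.18, 9.35 and 8.95 on the quiescent arrays. The ratio was -0.30 (standard error 0.33, interval -1.13 to 0.53), with -0.67, -0.27 and 0.02 in the preparations. Its groups overlapped, since the replicating array of preparation 1 read above the quiescent arrays of preparations 2 and 3. Whether the *Stat5a* and *Stat5b* probes bind each other's transcripts was not checked here.

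**Figure D2:**
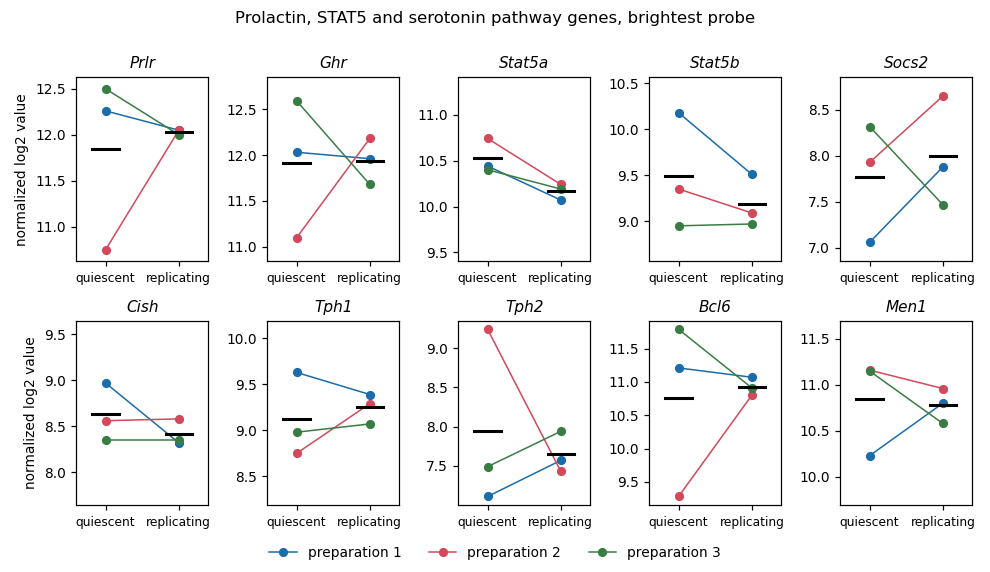
Normalized log2 values (vertical axes, each panel with its own range) of the 10 genes on the quiescent and replicating arrays. Points are arrays, lines join the arrays of 1 islet preparation and black bars are group means of 3 arrays. *Prlr*, *Ghr* and *Bcl6* share a low quiescent array in preparation 2, and *Stat5a* is the 1 gene with lines that all slope down.

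The feedback inhibitors that STAT5 induces are the usual transcript readout of the pathway, and neither was called. *Cish*, which blocks docking of STAT5 on the receptor, read 8.32, 8.58 and 8.35 on the replicating and 8.97, 8.56 and 8.35 on the quiescent arrays. Only preparation 1 showed a difference, with ratios of -0.65, 0.02 and 0.00. The *Cish* ratio was -0.21 (standard error 0.33, interval -1.05 to 0.63), on the gene whose promoter carries the 4 motifs printed above. *Socs2*, an inhibitor best known for limiting growth hormone signalling, read 7.88, 8.65 and 7.47 on the replicating and 7.06, 7.93 and 8.32 on the quiescent arrays. It was above the quiescent array by 0.82 and 0.72 in preparations 1 and 2, and its ratio was -0.85 in preparation 3. The *Socs2* ratio over all 3 was 0.23 (standard error 0.45, interval -0.92 to 1.38). Its replicating arrays spanned 1.18, the widest range of the 10 genes in that group, so this was the 1 gene nearly as variable in replicating as in quiescent cells (1.26).

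The serotonin enzymes did not differ beyond the spread either. *Tph1* encodes the tryptophan hydroxylase of peripheral tissues, which islets raise in pregnancy. It read 9.39, 9.29 and 9.07 on the replicating and 9.63, 8.75 and 8.98 on the quiescent arrays. The *Tph1* ratio was 0.13 (standard error 0.33, interval -0.72 to 0.98), with -0.24, 0.54 and 0.09 in the preparations, and its dimmer probe gave 0.26 (interval -0.53 to 1.05). *Tph2*, the form used by neurons, read 7.57, 7.43 and 7.94 on the replicating and 7.11, 9.24 and 7.49 on the quiescent arrays. The quiescent array of preparation 2 was the highest of the 6 here, 2.13 above the lowest quiescent array. The *Tph2* ratio was -0.30 (standard error 0.56, interval -1.72 to 1.12), with 0.45, -1.81 and 0.46 in the preparations and 0.45 without preparation 2.

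*Bcl6* and *Men1*, at the end of the lactogen response, were not called either. *Bcl6*, a zinc-finger repressor, read 11.07, 10.80 and 10.91 on the replicating and 11.21, 9.28 and 11.79 on the quiescent arrays. As for *Prlr*, the replicating values lay close together, within 0.27, inside a quiescent range of 2.51. The *Bcl6* ratio was 0.17 (standard error 0.54, interval -1.20 to 1.53), with -0.14, 1.52 and -0.88, and without preparation 2 it was -0.51. *Men1*, whose product menin holds β-cell growth in check, read 10.80, 10.96 and 10.58 on the replicating and 10.23, 11.16 and 11.15 on the quiescent arrays. The *Men1* ratio was -0.07 (standard error 0.37, interval -1.01 to 0.87), with 0.57, -0.21 and -0.57 in the preparations.

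Among the arrays, the quiescent group varied more for all of these genes. The range over the 3 quiescent arrays exceeded that over the 3 replicating arrays for 10 of 10 genes, as it did for 86.8% of the 17216 named genes with a value on every array. The quiescent array of preparation 2 was the lowest of the 6 for 4 genes (*Prlr*, *Ghr*, *Tph1* and *Bcl6*) and the highest for 3 (*Stat5a*, *Tph2* and *Men1*). Over the named genes the shares were 39.4% and 31.7%. Genes that followed *Prlr* most closely over the 6 arrays were sought among 9164 named genes with an SD of at least 0.5. They were *Saraf*, a brake on store-operated calcium entry (Pearson's r = 0.998), *Casp4*, an inflammatory caspase (0.996), *Ice1* (0.996), *Herpud1*, a protein of endoplasmic reticulum quality control (0.995), and *Rnf146*, a ubiquitin ligase (0.9945). These values describe 6 arrays, of which the low quiescent array of preparation 2 sets most of the spread in *Prlr*.

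Around the 10 genes, 77 of 79 other listed names of the pathway were on the array, in 6 lists of ligands, JAK-STAT relay, inhibitors, serotonin genes, menin partners and STAT5-responsive genes. *Mll1* and *Kmt2b* were not matched by name and are not analysed here. Of the 77 genes, 7 were called higher, 3 lower and 67 neither, with a median ratio of 0.21, where 5.95% of all named genes were called higher and 2.58% lower. Groups were apart with all replicating values above in 16 and below in 3, against the 11.2% and 5.85% of named genes given above. Since the lists were chosen with earlier results of these data known, these counts describe them and do not test them. No gene passed after Benjamini-Hochberg adjustment in limma. The spread of ratios within each list is shown in the plot of the lists, and every list held ratios on both sides of 0.

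**Figure D3:**
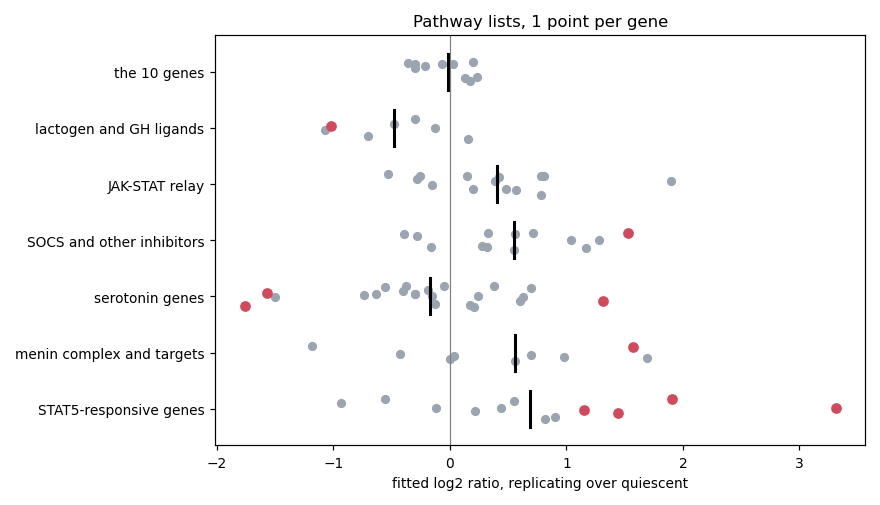
Fitted log2 ratio, replicating over quiescent (horizontal axis), with 1 point a gene for the 10 genes and the 6 pathway lists. Red points met the selection rule and grey points did not, and black bars are list medians. The 10 genes lie close to 0, and 4 of the 7 genes called higher are STAT5-responsive genes. The lists were chosen with earlier results of these data known, so such counts are descriptions.

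The ligands and relay held 1 call. Of 7 lactogen and growth hormone ligand genes 1 was called lower, *Prl3d4*, a placental lactogen gene (ratio -1.02, unadjusted p of 0.0459 in limma, adjusted p of 0.475), and 0 higher. It read 7.23, 7.06 and 6.88 on the replicating and 8.41, 8.66 and 7.15 on the quiescent arrays. The 2 brightest were the quiescent arrays of preparations 1 and 2, which also had the most probes well above background. Whether the call follows from those arrays was not tested. Another *Prl3d4* probe gave -0.13, but was well above background on 0 of 3 replicating and 2 of 3 quiescent arrays. Only 2 of the 7 ligand genes were well above background on every array. Of the 14 relay genes none was called, with a median ratio of 0.41. *Jak2*, the kinase bound to both receptors, read 10.22, 10.71 and 10.50 on the replicating and 9.91, 9.23 and 9.85 on the quiescent arrays. Its groups did not overlap, and the ratio of 0.81 (interval -0.13 to 1.76) had an unadjusted p of 0.0783 and an adjusted p of 0.475 in limma.

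Among 13 other inhibitors of the pathway 1 was called higher and 0 lower, with a median of 0.55. This was *Pias1*, a SUMO ligase that restrains STAT proteins. It read 8.74, 8.67 and 8.74 on the replicating and 7.0, 6.33 and 8.23 on the quiescent arrays, so that its groups stood apart with a ratio of 1.53 (standard error 0.45, unadjusted p of 0.0185 in limma, adjusted p of 0.475). *Socs1* had a ratio of 0.28 (interval -0.54 to 1.10). *Socs3*, the inhibitor induced by STAT3, had 0.71 (interval -0.79 to 2.21) on its brightest probe and -0.57 on another.

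Of 22 genes of serotonin synthesis, transport, breakdown and reception, 1 was called higher and 2 lower, with a median of -0.17. *Ddc*, which makes serotonin from the product of *Tph1* and also makes dopamine, read 13.08, 13.20 and 12.76 on the replicating and 11.92, 10.79 and 12.41 on the quiescent arrays. Its ratio was 1.31 (standard error 0.48, unadjusted p of 0.0403 in limma, adjusted p of 0.475), but 4 other probes of *Ddc* gave 0.67, 0.24, -0.16 and -1.68. A further *Ddc* probe, not among these, was well above background on 0 of 3 replicating and 2 of 3 quiescent arrays. Its quiescent mean was 1.39-fold brighter when replicating values were counted as no lower than each array's dimmest signal well above background. *Htr5b*, a serotonin receptor, read 7.07, 6.67 and 7.29 on the replicating and 8.23, 9.22 and 8.30 on the quiescent arrays. It was lower in every preparation, with a ratio of -1.57 (unadjusted p of 0.0138 in limma, adjusted p of 0.475). *Htr5a*, its relative, was not well above background on any replicating array and was so on 2 of 3 quiescent arrays. It read 5.67, 5.83 and 5.71 on the replicating and 8.37, 8.26 and 5.85 on the quiescent arrays, so that preparation 3 showed a ratio of -0.14 and 4 of the 6 arrays gave no more than a bound. The 2 brightest, the quiescent arrays of preparations 1 and 2, were again those with the most probes well above background. The quiescent mean of *Htr5a* was 2.19-fold brighter when replicating values were counted in the way given for *Ddc*. Its fitted ratio of -1.76 (unadjusted p of 0.0297 in limma, adjusted p of 0.475) used values not well above background. The receptor that islet serotonin uses in pregnancy, *Htr2b*, read 10.38, 10.38 and 10.05 on the replicating and 10.86, 10.33 and 10.53 on the quiescent arrays (ratio -0.30, interval -1.12 to 0.52). The vesicle transporters *Slc18a1* and *Slc18a2* had ratios of -0.05 and -0.40 on their brightest probes. Other *Slc18a1* probes gave -1.03 (unadjusted p of 0.0503 in limma) and -0.17, and other *Slc18a2* probes gave -0.06 and 0.52. The serotonin reuptake transporter *Slc6a4* had -0.74 (interval -1.63 to 0.14), and the channel receptor *Htr3a* had 0.21. *Htr1d* was well above background on 0 of 3 replicating arrays and 1 of 3 quiescent arrays, so no ratio is given.

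Menin acts with the histone methyltransferase *Kmt2a* to keep cell-cycle inhibitors switched on. Of 9 genes of this list 1 was called higher and 0 lower, with a median of 0.56. *Cdkn2c*, the p18 inhibitor, read 7.50, 7.51 and 8.56 on the replicating and 6.35, 6.02 and 6.50 on the quiescent arrays. All 3 replicating arrays lay above all quiescent arrays, and the ratio was 1.57 (standard error 0.34, unadjusted p of 0.00555 in limma, adjusted p of 0.475). *Cdkn1b*, the p27 inhibitor, read 10.56, 10.69 and 10.81 on the replicating and 9.48, 6.84 and 10.67 in quiescent cells. Its ratio of 1.69 (interval -0.23 to 3.61) was 0.14 in preparation 3 and had an unadjusted p of 0.0739 in limma. *Kmt2a* itself had a ratio of 0.04 (interval -0.86 to 0.93).

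Of 12 genes known to respond to STAT5 or lactogens in islets, 4 were called higher (5.95% of all named genes were) and 0 lower, with a median of 0.69. The list was chosen with earlier results of these data known, so its share of calls is a description and no test of the list. Differences between the lists were not tested. *Foxm1*, a transcription factor of mitotic genes, read 12.40, 12.98 and 12.80 on the replicating and 8.56, 9.98 and 9.70 on the quiescent arrays. Its ratio was 3.31 (standard error 0.34, unadjusted p of 0.000173 in limma, adjusted p of 0.143), or 9.94-fold, and a dimmer *Foxm1* probe gave 0.46. *Cdkn1a*, the p21 cell-cycle inhibitor, read 11.77, 11.60 and 12.51 on the replicating and 10.45, 8.46 and 11.26 on the quiescent arrays, a ratio of 1.91 (unadjusted p of 0.0109 in limma), with 3.27 on its other probe.

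The remaining calls of that list were kinases. *Pim1*, a survival kinase that STAT5 induces, read 9.95, 9.77 and 10.26 on the replicating and 8.41, 7.56 and 9.68 on the quiescent arrays, a ratio of 1.44 (unadjusted p of 0.018 in limma). *Pim2* read 12.98, 13.32 and 12.64 on the replicating and 11.79, 11.76 and 11.95 on the quiescent arrays, a ratio of 1.15 (unadjusted p of 0.0188 in limma). Neither kinase overlapped between the groups, and the adjusted p was 0.475 for each in limma. *Ccnd2*, the cyclin that drives β-cell cycle entry, had a ratio of -0.56 (interval -1.38 to 0.26). Replication itself is what the cells were sorted for, and *Foxm1*, *Cdkn1a* and *Cdkn2c* are genes of the cell cycle as well as of these lists, so that the responses to STAT5 and to the cycle cannot be told apart.

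**Figure D4:**
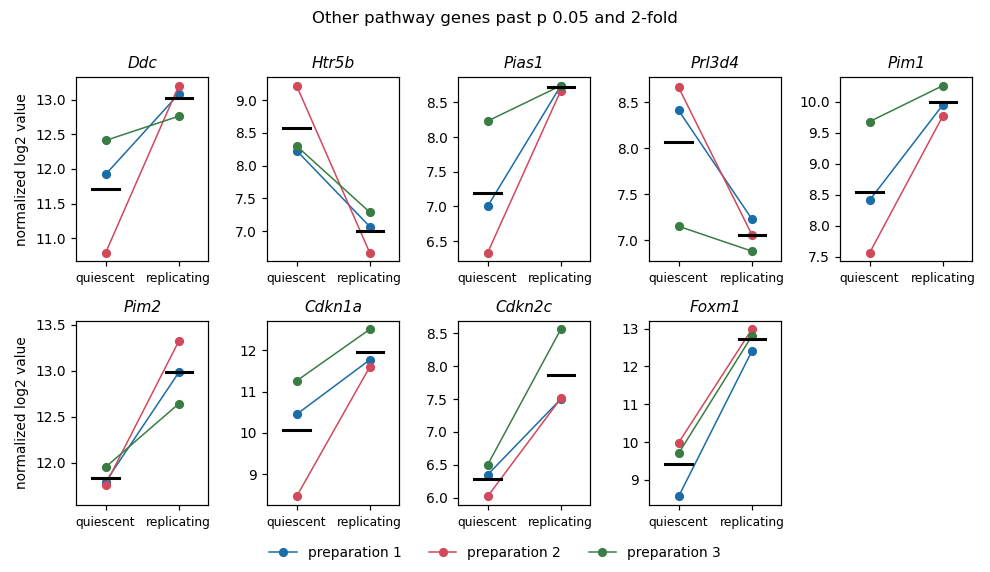
Normalized log2 values (vertical axes, each panel with its own range) of the other pathway genes called higher or lower, on the quiescent and replicating arrays. Points are arrays, lines join the arrays of 1 islet preparation and black bars are group means of 3 arrays. *Htr5a* is left out because its replicating arrays were not well above background, and in the 9 panels all 3 lines run the same way.

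Leaving out a preparation also leaves fewer arrays, so a larger p does not by itself mean a smaller difference. *Foxm1*, *Cdkn1a* and *Cdkn2c* kept an unadjusted p of at most 0.05 in limma when any preparation was left out. Without preparation 1 the unadjusted p in limma was 0.131 for *Ddc*, 0.12 for *Pim2*, 0.103 for *Pim1*, 0.108 for *Pias1*, 0.0508 for *Htr5b*, 0.17 for *Htr5a* and 0.208 for *Prl3d4*. The ratios without it were close to those over all 3 preparations for *Ddc* (1.38), *Pim2* (1.13), *Pim1* (1.39), *Pias1* (1.43), *Htr5b* (-1.78) and *Prl3d4* (-0.94). Without preparation 2 the unadjusted p in limma was 0.117 for *Ddc*, 0.053 for *Pim2*, 0.0519 for *Htr5a* and 0.136 for *Prl3d4*. The ratios were then smaller in size for *Ddc* (0.76), *Pim2* (0.94), *Prl3d4* (-0.72) and *Cdkn1a* (1.29). They were also smaller for *Pias1* (1.13), *Pim1* (1.06), *Htr5b* (-1.08) and *Htr5a* (-1.42), but not for *Foxm1* (3.47) and *Cdkn2c* (1.61). Without preparation 3 all 10 genes stayed at or below 0.05.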

How the data were processed

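RNA of the sorted cells was amplified and read with Cy3 on 6 Agilent rat arrays of 1 slide. The intensity values deposited by the authors are Feature Extraction signals, not normalized between arrays. The log2 values deposited by the authors were made by normexp background correction and quantile normalization and were used here as the main values. They differed by at most 0.0002455 from the same steps applied here with an offset of 50. Control spots were left out, outlier spots were set to missing and spots of a probe were averaged, giving 45598 probes, 44652 of them complete. Each probe was fitted with limma 3.58.1 (lmFit and eBayes) in R 4.3.3 and a term for islet preparation, following the paired test of the study, with Benjamini-Hochberg adjustment over all probes. Files were read with data.table, version 1.17.8. The script was tested on simulated data.

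The 10 genes and all lists were chosen with earlier results of these data known. Text names all 10 genes, every listed pathway gene called, and a few pathway genes named whatever their values. The values of 1 listed gene are not reported here. The 17582 named genes are array names matched to RefSeq symbols or their synonyms (GRCr8). Pairing comes from the labels and methods, which give 1 sample of each group per preparation. The 2 arrays of a preparation deviated from their groups with a correlation of 0.0561, 0.242 and 0.258. Rats differ between preparations, so the fit compares the groups over 3 preparations. Its p-values do not measure a gene's own spread alone, because limma moderates each variance with that of all probes. *Stat5a*, for example, had ratios of -0.37, -0.50 and -0.21 and a standard error of 0.31. The number of arrays limits precision. Sequences came from the array files and from RefSeq.

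Alternatives were scanner signals with normexp at an offset of 50 or 0, scaling of the normexp values or of the processed signal to each array's 75th percentile, a filter on dim probes, keeping outlier spots, dropping the block, letting the variance follow a trend, the median of all probes of a gene, and each preparation left out.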

Additional observations from a re-analysis of the deposited data

How the results depend on the processing

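Under 13 alternatives the 10 genes of the pathway gave 0 calls in either direction and 0 after adjustment, as in the fit reported. Of 130 recomputed ratios 22 changed sign. The scanner files at an offset of 50, the filter on dim probes, outlier spots kept, no block and the variance trend left every ratio of the 10 genes as it was, the filter, block and trend by construction, so these say nothing about stability of sign. Over all alternatives the lowest p was 0.0796 (limma, unadjusted; lowest adjusted p 0.292). *Stat5a* and *Stat5b* kept their sign throughout, at -0.43 to -0.25 and -0.48 to -0.12. For *Stat5a* leaving out a preparation could not change the sign, because its ratio was below 0 in every preparation. Scaling to the 75th percentile moved the median ratio of all probes from -0.07 to -0.71 with the processed signal (662 higher and 3193 lower, against 2023 and 1905) and to -0.39 with normexp values (1596 and 5862, with 719 adjusted calls). There *Socs2*, *Tph1* and *Bcl6* were -0.44, -0.15 and -0.02 with the processed signal and -0.35, -0.13 and -0.04 with normexp. The medians of named genes were -0.41 and -0.25 there, with *Socs2* below both and *Tph1* and *Bcl6* above. *Stat5a* was -0.39 with the processed signal, slightly above that median, and -0.36 with normexp, below it. *Stat5b* was below both medians, at -0.48 and -0.44. When 1 preparation was left out, *Prlr* ranged from -0.35 to 0.54, *Ghr* from -0.49 to 0.50, *Socs2* from -0.07 to 0.77, *Cish* from -0.32 to 0.01, *Tph1* from -0.08 to 0.31, *Tph2* from -0.68 to 0.45, *Bcl6* from -0.51 to 0.69 and *Men1* from -0.39 to 0.18. The changes of sign were *Socs2* (-0.07) and *Cish* (0.01) without preparation 1. Without preparation 2 they were *Prlr* (-0.35), *Ghr* (-0.49), *Socs2* (-0.01), *Tph1* (-0.08), *Tph2* (0.45), *Bcl6* (-0.51) and *Men1* (0.00), and without preparation 3 *Men1* (0.18). Dropping the preparation block (the pairing) left 0 calls among the 10 genes, and 7 higher and 2 lower among the 77 pathway genes. With no block and without the quiescent array of preparation 2, a choice made after seeing the data, *Prlr* was -0.35, *Ghr* -0.37, *Tph1* -0.06, *Tph2* 0.35, *Bcl6* -0.57 and *Men1* 0.09. The 7 pathway genes called higher became 3 with the processed signal scaled to the 75th percentile and 3 to 9 when 1 preparation was left out. The 3 called lower became 5 with an offset of 0, 6 with normexp at the 75th percentile, 1 with the filter on dim probes, 1 with no block and without that quiescent array, and 0 to 4 when 1 preparation was left out. With the processed signal at the 75th percentile *Ddc*, *Pias1*, *Pim1*, *Pim2* and *Prl3d4* had an unadjusted p in limma of 0.0513 to 0.12, with ratios of 1.37, 1.42, 1.10, 1.35 and -2.12. The causes were not tested.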
